A study of Drosophila melanogaster with 10 samples.

Results

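The genes of the Notch pathway were followed in Drosophila cells depleted of Tip60. The 10 genes listed were the receptor N, its ligands Dl and Ser, the protease kuz, the gamma-secretase subunits Psn and nct, the nuclear factors Su(H), mam and H, and the target gene E(spl)m3-HLH. A probe set belonged to the group when its gene symbol in the platform annotation, or the current synonym of that symbol, was one of the 10. This gave 9 probe sets for 6 genes (Dl, kuz, Psn, mam, H and E(spl)m3-HLH), among 18769 fly probe sets in all. For N, Ser, Su(H) and nct the annotation used here named no probe set, so these 4 genes were not analysed here.

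Notch is a receptor that signals by being cut. When a ligand such as Delta on a neighbouring cell binds, the metalloprotease Kuzbanian removes the outer part of the receptor and gamma-secretase, whose catalytic subunit is Presenilin, releases the inner part. That fragment enters the nucleus, joins Suppressor of Hairless and the coactivator Mastermind, and turns on targets of the Enhancer of split complex, while Hairless holds Suppressor of Hairless in a repressing state when no signal arrives. In blood cells of the fly larva the pathway is known for its part in the crystal cell fate, and cultured fly cells of the type used here have long served as hosts for introduced Notch and Delta because they make little Notch of their own.

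Expression was measured on 10 Affymetrix arrays, 1 for each sample, in SL2 cells, an embryo-derived Drosophila melanogaster line with hemocyte-like properties. In the Tip60 RNAi group, cells were given dsRNA against Tip60, the catalytic subunit of a histone acetyltransferase complex; 3 dsRNAs were used on 2 arrays each, named by their positions in the Tip60 sequence as 1321-1618, 190-807 and 603-1116. In the eGFP RNAi group, 4 arrays, cells were given dsRNA against eGFP as a mock treatment. All cells received 10 µg of dsRNA, were kept at 26°C and were harvested after 5 days; the dsRNAs 190-807 and 603-1116 share 205 nucleotides, and the labels do not state whether samples of 1 group were grown as independent cultures, so part of the spread behind each p-value may be technical.

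The Tip60 probe set itself averaged 307 ± 71.5 on the Tip60 RNAi arrays, against 1239 ± 103 on the eGFP RNAi arrays (SD, n = 6 and n = 4; log2 change -2.04, SE 0.15). Values are probe set signals in arbitrary units, and each array had been scaled to the same trimmed mean. Median signals of 78.0 to 109.5 were found on the Tip60 RNAi arrays and of 55.4 to 71.8 on the eGFP RNAi arrays. The hybridization spike-ins had geometric means of 9792 to 15231 on the Tip60 RNAi arrays and of 6070 to 10285 on the eGFP RNAi arrays, and the poly-A spike-ins of 537 to 779 on the Tip60 RNAi arrays and of 329 to 440.04 on the eGFP RNAi arrays. The change of a probe set also went with its brightness: with the probe sets tested ranked by mean signal into 4 equal classes, the median log2 change was 0.49 in the dimmest class, 0.16 in the next, and -0.06 and -0.03 in the brighter classes. The part of these differences in the results below was not tested. All 10 hemocyte markers examined passed the filter and were called higher in Tip60 RNAi, beside 17.8% of all probe sets tested. All 10, by their brightest probe set, were in the brightest class, where 56.2% of probe sets were called, higher or lower. Their geometric mean signal was 18713 to 21687 on the Tip60 RNAi arrays and 10887 to 11702 on the eGFP RNAi arrays. When arrays were centred on their median or scaled to their hybridization or poly-A spike-ins, 3, 3 and 2 of these 10 were called higher and 0, 0 and 1 lower, and 3, 3 and 7 had negative log2 changes. Of 3 crystal cell markers, lz and PPO2 were called higher (log2 changes 0.39 and 0.22) and PPO1 lower (-0.38). Of 14 markers of neurons, muscle, germline, fat body and glia, 10 had a probe set, with a geometric mean of 47.8 to 99.8 in Tip60 RNAi and of 44.2 to 64.4 in eGFP RNAi. Of these 10, nSyb, up, vas, Fbp1 and Yp1 were below the filter on dim probe sets, and of the other 5 only moody, a glial receptor gene, was called (lower, 2364 in Tip60 RNAi and 3699 in eGFP RNAi). In such bulk samples fewer cells of a type and less RNA per cell cannot be told apart.

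Of the 9 Notch pathway probe sets, 2 were called higher in Tip60 RNAi, 2 were called lower and 5 were not called. A call means an adjusted p under 0.05 in limma after Benjamini-Hochberg adjustment over all 11261 probe sets that passed the filter, which all 9 did. The protease gene kuz rose 1.71-fold and 1 probe set of the coactivator gene mam rose 1.48-fold, while 1 probe set of the antagonist gene H and the probe set of the target E(spl)m3-HLH fell to 0.835 and 0.788 of the eGFP RNAi level. Neither rise was called when arrays were scaled to their median or their spike-ins. Neither Dl probe set, nor that of Psn, nor the second probe sets of mam and H were called. Across the array 34.5% of the probe sets tested were called, 17.8% higher and 16.7% lower, so the count of 4 in 9 is no result particular to these genes. All Tip60 RNAi arrays lay on 1 side of all eGFP RNAi arrays for 2 of the 9 probe sets, kuz above and H (1639839_s_at) below; of all probe sets tested 25.4% were so separated, 12.4% above and 13.1% below.

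**Figure D1:**
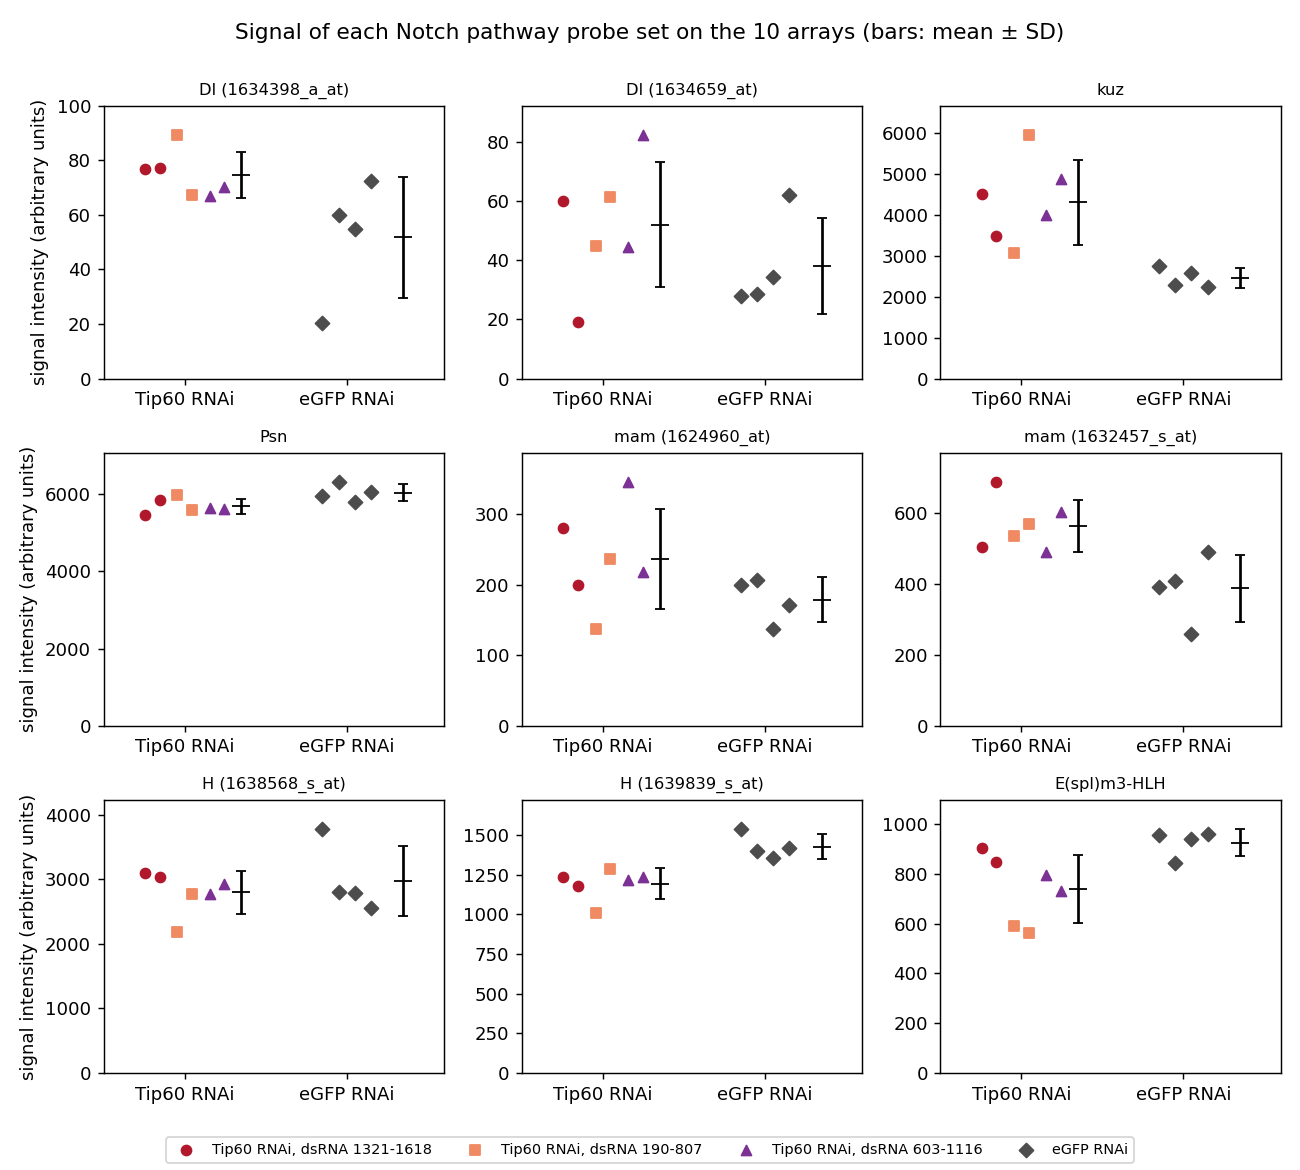
Probe set signal (vertical axes, arbitrary units, starting at 0) on each array for the 9 Notch pathway probe sets, with 1 point for each array, coloured by dsRNA, and a bar for the mean ± SD of each group (n = 6 Tip60 RNAi, n = 4 eGFP RNAi). All Tip60 RNAi points of kuz lie above the eGFP RNAi points and all those of H (1639839_s_at) below them; the groups overlap in the other 7 panels.

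Delta, the ligand, was measured by 2 probe sets with signals near the filter on dim probe sets, a mean signal of 34.5. Probe set 1634398_a_at read 76.8 and 77.0 with dsRNA 1321-1618, 89.3 and 67.2 with 190-807, and 66.9 and 70.3 with 603-1116, against 20.4, 59.95, 54.7 and 72.3 in eGFP RNAi. Only 3 of the 6 Tip60 RNAi arrays exceeded the highest eGFP RNAi array, and the lowest eGFP RNAi value stood well under the others. The log2 change was 0.66 (SE 0.41, 95% interval -0.22 to 1.54), with an adjusted p of 0.240. Without eGFP RNAi array 2-1, which held that lowest value, it was 0.26 (adjusted p = 0.649), and without any other 1 array it stayed between 0.61 and 0.87. Probe set 1634659_at read 60.2, 19.3, 44.7, 61.5, 44.5 and 82.3 in Tip60 RNAi, taking the dsRNAs in the same order, against 27.8, 28.7, 34.2 and 62.2 in eGFP RNAi. Here the lowest of all 10 values was on a Tip60 RNAi array and so was the highest. The log2 change was 0.40 (SE 0.54, 95% interval -0.75 to 1.55; adjusted p = 0.609). Both intervals include 0 and the median of 0.49 for the dimmest class, to which both probe sets belong.

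The gene kuz encodes the ADAM-family metalloprotease that makes the ligand-dependent outer cut in Notch. Its probe set 1628215_s_at read 4519.7 and 3487 with dsRNA 1321-1618, 3062 and 5952 with 190-807, and 3996 and 4869.8 with 603-1116, against 2748, 2289, 2579 and 2246 in eGFP RNAi. Every Tip60 RNAi array was above every eGFP RNAi array, though the Tip60 RNAi arrays spread widely, with the lowest and the highest both from dsRNA 190-807. The means were 4315 ± 1038 in Tip60 RNAi and 2466 ± 239 in eGFP RNAi (SD, n = 6 and n = 4). The log2 change of 0.78 (SE 0.14, 95% interval 0.48 to 1.07), a 1.71-fold rise, had an adjusted p of 0.000338. Each dsRNA on its own gave a called rise against eGFP RNAi: 0.69 for 1321-1618 (adjusted p = 0.0174), 0.80 for 190-807 (adjusted p = 0.00833) and 0.84 for 603-1116 (adjusted p = 0.00478), each with an SE of 0.19. The comparisons of the 3 dsRNAs share the eGFP RNAi arrays. Among the Tip60 RNAi arrays, the one with the lowest kuz signal also had the lowest Tip60 signal (209, dsRNA 190-807 replicate 1), and the one with the highest kuz signal had the highest Tip60 signal (399.6, dsRNA 190-807 replicate 3). The part of the Tip60 level in the spread of kuz was not tested.

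Psn, which encodes the catalytic subunit of gamma-secretase, varied little. It read 5454, 5833, 5981, 5582, 5636 and 5619 in Tip60 RNAi, against 5955, 6308, 5793 and 6063 in eGFP RNAi. Of the 6 Tip60 RNAi values, 4 were under the lowest eGFP RNAi value, but the groups overlapped. The log2 change was -0.09 (SE 0.05), and its 95% interval of -0.20 to 0.03 held it to a small size on this scale; the adjusted p was 0.240. Of 5 further cleavage genes listed, pen-2, for another gamma-secretase subunit, was the only 1 that passed the filter, and it fell: 1627, 1415, 1399, 1586, 1522 and 1482 in Tip60 RNAi, all below the 2073, 1873, 2053 and 2197 of eGFP RNAi. Its log2 change was -0.44 (SE 0.07; adjusted p = 0.000105).

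Mastermind, the coactivator that completes the nuclear Notch complex, was represented by 2 probe sets. The brighter, 1632457_s_at, read 504, 688, 534, 568, 489 and 602.5 in Tip60 RNAi, against 392, 409, 260.1 and 490.6 in eGFP RNAi. Of the 6 Tip60 RNAi arrays, 5 exceeded the highest eGFP RNAi array, and the sixth missed it by little. The means were 564 ± 73.4 in Tip60 RNAi and 388 ± 95.4 in eGFP RNAi, and the log2 change was 0.57 (SE 0.15, 95% interval 0.24 to 0.90; adjusted p = 0.00914). The other, 1624960_at, read 279.6, 199.7, 137.3, 236, 345 and 218 in Tip60 RNAi, against 199.1, 207, 137.3 and 171 in eGFP RNAi. Of the 6 Tip60 RNAi values 4 were above the eGFP RNAi range and 1 at its lower edge, and its log2 change of 0.36 (SE 0.23) had an interval of -0.13 to 0.85 that includes both 0 and the value of the first probe set (adjusted p = 0.249). In Affymetrix names the ending _s_at marks a probe set whose probes can match more than 1 transcript. Probe sequences were not used here. The only kuz probe set and both of H have this ending too, as do those of Efr, Su(dx) and Smr among the further genes below.

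Hairless is the main antagonist of the pathway and binds Suppressor of Hairless together with the corepressors Groucho and CtBP. Probe set 1639839_s_at read 1238, 1181, 1010.3, 1287, 1218 and 1235 in Tip60 RNAi, against 1538, 1402, 1353 and 1421 in eGFP RNAi. All Tip60 RNAi arrays lay under all eGFP RNAi arrays. The log2 change was -0.26 (SE 0.08, 95% interval -0.43 to -0.09; adjusted p = 0.0163), the smallest of the 4 called changes. This call did not hold without eGFP RNAi array 2-1, the highest of its group, where the change was -0.22 with an adjusted p of 0.0656. The brighter probe set of H, 1638568_s_at, read 3104, 3043, 2184, 2775, 2776 and 2935 in Tip60 RNAi, against 3779.9, 2806, 2784 and 2562 in eGFP RNAi. Here eGFP RNAi array 2-1 stood far above its group and dsRNA 190-807 replicate 1 far below its own, and the remaining values of both groups lay together. Its log2 change was -0.08 (SE 0.11, 95% interval -0.31 to 0.15; adjusted p = 0.593), so a fall of H rested on 1 of its 2 probe sets.

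E(spl)m3-HLH encodes one of the basic helix-loop-helix repressors that Notch signalling switches on. It read 903.6 and 849 with dsRNA 1321-1618, 592 and 564 with 190-807, and 796 and 732 with 603-1116, against 957, 845, 939 and 962 in eGFP RNAi. The arrays with dsRNA 1321-1618 lay within the eGFP RNAi range, those with 603-1116 under it, and those with 190-807 lowest. Pooled, the means were 739.6 ± 138 in Tip60 RNAi and 926 ± 54.6 in eGFP RNAi, a log2 change of -0.34 (SE 0.13, 95% interval -0.61 to -0.08) with an adjusted p of 0.0431. By dsRNA, the change was -0.08 for 1321-1618 (adjusted p = 0.657), -0.68 for 190-807 (adjusted p = 0.000434) and -0.28 for 603-1116 (adjusted p = 0.0718), each with an SE of 0.11. The F-test of limma among the dsRNAs gave an adjusted p of 0.228 after Benjamini-Hochberg adjustment over all probe sets (0.000831 before it), so a difference between the dsRNAs did not pass the threshold. The pooled call was lost without dsRNA 190-807 (-0.18, adjusted p = 0.160) and without dsRNA 603-1116 (-0.38, adjusted p = 0.0680). It was also lost without any 1 of 6 arrays: eGFP RNAi 2-1, 3-1 or 3-2, either array of dsRNA 190-807, and dsRNA 603-1116 replicate 3, with adjusted p from 0.0635 to 0.0993.

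**Figure D2:**
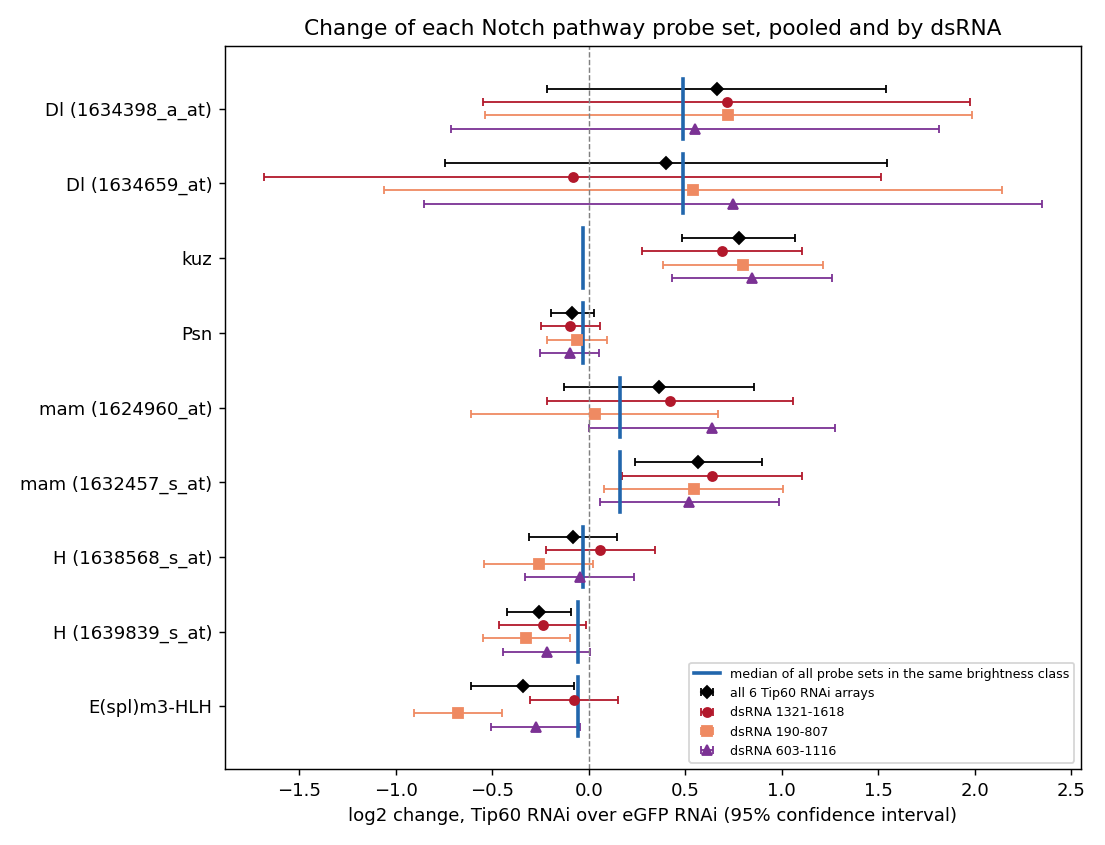
Log2 change, Tip60 RNAi over eGFP RNAi (horizontal axis), with 95% confidence intervals, for the 9 probe sets: black diamonds pool the 6 Tip60 RNAi arrays, coloured symbols give each dsRNA (2 arrays each) against the same 4 eGFP RNAi arrays, and blue lines mark the median of all probe sets in the same class of brightness. The kuz symbols lie together at 0.69 to 0.84, whereas those of E(spl)m3-HLH run from -0.68 to -0.08.

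Taken dsRNA by dsRNA, 2 of the 9 probe sets were called for 1321-1618 (kuz and mam 1632457_s_at), where 23.7% of all probe sets tested were called. For 190-807 there were 3 (kuz, H 1639839_s_at and E(spl)m3-HLH), beside 22.1% of all, and for 603-1116 there was 1 (kuz), beside 27.2% of all. The direction of mam 1632457_s_at was upward with each dsRNA (0.64, 0.54 and 0.52, with adjusted p of 0.0458, 0.0918 and 0.0910), and that of H 1639839_s_at downward (-0.24, -0.32 and -0.22, with adjusted p of 0.123, 0.0392 and 0.140). No Notch pathway probe set passed the limma F-test for a difference among the dsRNAs, and 1 had an unadjusted p under 0.05; of all probe sets tested 4, or 0.0355%, passed it.

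The size of a change, and for some probe sets its direction, depended on what an array was scaled to. Centring each array on its median, or scaling it to its hybridization or poly-A spike-ins, shifted every log2 change by 1 constant, -0.51, -0.55 and -0.75. Of all calls 51.5% were higher with the deposited scaling and 6.84%, 5.88% and 3.25% with these 3. The change of kuz became 0.27, 0.23 and 0.03 with adjusted p of 0.173, 0.396 and 0.901, and that of mam 1632457_s_at 0.06, 0.02 and -0.18, so neither was called. Psn became -0.59, -0.63 and -0.84 and H 1638568_s_at -0.59, -0.63 and -0.83, and under each of the 3 scalings these 2, with H 1639839_s_at and E(spl)m3-HLH, made 4 called lower and 0 called higher. Of all probe sets tested, 48.5%, 41.9% and 60.1% were then called lower, so 4 in 9 lay near the background. Quantile normalization and cyclic loess kept all 4 calls. Relative to the median of probe sets of like brightness, which no constant scaling alters, the change of kuz stood at 0.81, those of mam at 0.41 (1632457_s_at) and 0.20 (1624960_at), those of Dl at 0.17 (1634398_a_at) and -0.09 (1634659_at), that of Psn at -0.06, those of H at -0.05 (1638568_s_at) and -0.20 (1639839_s_at), and that of E(spl)m3-HLH at -0.29.

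**Figure D3:**
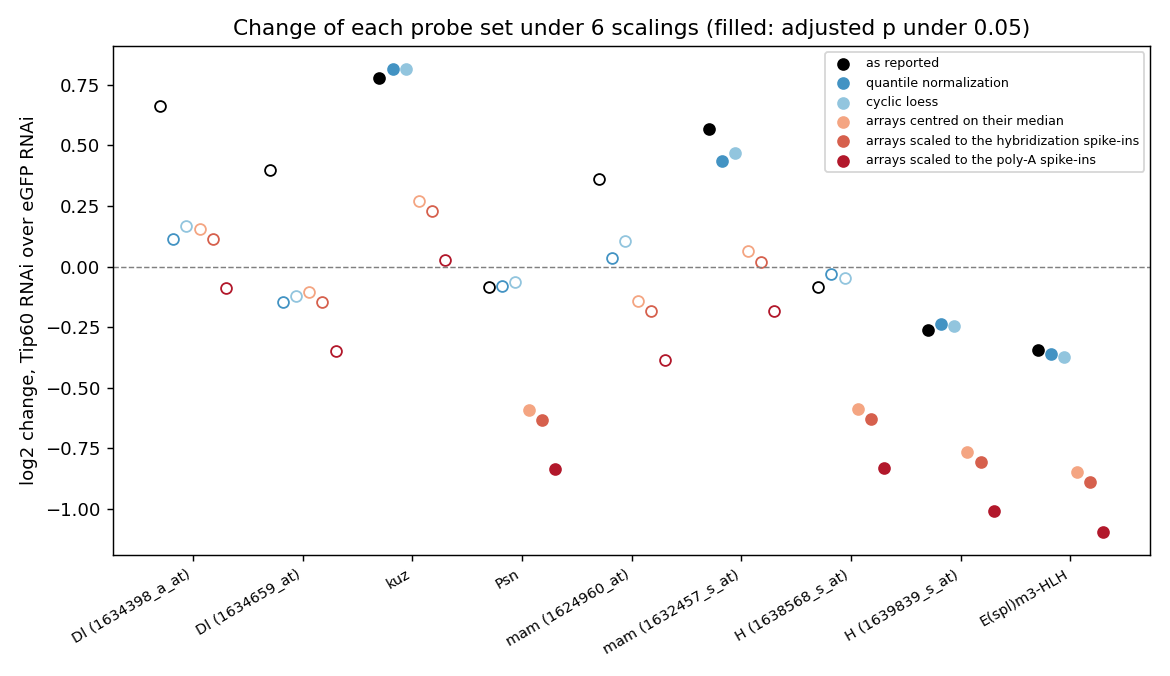
Log2 change, Tip60 RNAi over eGFP RNAi (vertical axis), of the 9 probe sets under the deposited scaling and 5 others; filled points have an adjusted p under 0.05. The kuz and mam (1632457_s_at) points are filled with the deposited scaling, quantile normalization and cyclic loess and open with the median and spike-in scalings, while Psn and H (1638568_s_at) are filled only with these 3.

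The wider pathway was read from a list of 57 further genes in 6 roles, of which 50 had a probe set named here and 40 passed the filter, with 1 probe set taken for each gene, the brightest. In Tip60 RNAi 7 were called higher, 6 lower and 27 were not called, so 32.5% were called, beside 34.5% of all probe sets tested. The median log2 change was 0.06, against 0.08 over all probe sets tested, and the values ran from -0.71 to 1.62. The 10 genes below the filter were Tace, kul, BobA, E(spl)m4-BFM, E(spl)m5-HLH, E(spl)m6-BFM, E(spl)m7-HLH, dpn, Hey and Him; aph-1, Adam, frc, mib1, E(spl)mgamma-HLH, E(spl)m8-HLH and wg had no probe set named in the annotation used here.

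Genes that fold the receptor or add sugars to it gave 1 call higher and 3 lower among 5 tested. Of all probe sets tested 34.5% were called, 17.8% higher and 16.7% lower, and a difference from these shares was not tested. The gene fng, for the glycosyltransferase Fringe that extends O-linked fucose on Notch and so tunes its response to ligands, rose. It read 599.5, 537, 663, 595, 572 and 572 in Tip60 RNAi, against 402, 352, 362 and 301 in eGFP RNAi, with every Tip60 RNAi array above. Its log2 change was 0.74 (SE 0.11; adjusted p = 6.16e-05). The genes that act before Fringe moved the other way: O-fut1, which adds the fucose, fell to 4747 ± 412 in Tip60 RNAi, against 5943 ± 753 in eGFP RNAi (log2 change -0.32; adjusted p = 0.00704), and Efr, a transporter of GDP-fucose, to 2242 ± 339 in Tip60 RNAi, against 2732 ± 233 in eGFP RNAi (-0.29; adjusted p = 0.0267). The gene rumi, for an O-glucosyltransferase of Notch, averaged 1586 ± 163 in Tip60 RNAi and 2045 ± 329 in eGFP RNAi (-0.36; adjusted p = 0.0111). The call of Efr was lost without any 1 of 4 arrays (eGFP RNAi 2-2 or 3-2, dsRNA 1321-1618 replicate 1 or 603-1116 replicate 1; adjusted p up to 0.0964), and that of rumi without eGFP RNAi 2-2 or 3-2 (adjusted p = 0.0506 and 0.0509). The groups overlapped for O-fut1, Efr and rumi, and shams, a xylosyltransferase gene, was not called (0.07). By dsRNA, O-fut1 and Efr were called only for 1321-1618 (adjusted p of 0.00282 and 0.0364) and rumi only for 603-1116 (adjusted p = 0.0457). The log2 changes of O-fut1, Efr and rumi were negative with each dsRNA.

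Of 10 genes for trafficking and turnover of the receptor, 3 were called higher and 1 lower, beside 17.8% and 16.7% of all probe sets. Su(dx), which encodes a ubiquitin ligase that sends Notch to degradation, read 4221, 4072, 3593, 3600.4, 4727 and 4655.5 in Tip60 RNAi, against 2504, 3073, 2631 and 2893 in eGFP RNAi. No array of one group reached the other, and the log2 change was 0.57 (SE 0.09; adjusted p = 8.14e-05). The related ligase gene Nedd4 averaged 1536 ± 306 in Tip60 RNAi and 1120 ± 183 in eGFP RNAi (0.44; adjusted p = 0.0212), with 4 of 6 Tip60 RNAi arrays above the eGFP RNAi range. This call was lost without eGFP RNAi 2-2, 3-1 or 3-2 (adjusted p from 0.0564 to 0.0720). By dsRNA, Nedd4 changed by 0.52 for 1321-1618, 0.09 for 190-807 and 0.73 for 603-1116 (adjusted p of 0.00941, 0.680 and 0.000839). The limma F-test among the dsRNAs gave an adjusted p of 0.298 for it (0.00241 before adjustment). The dimmer probe set of Nedd4, 1638288_at, was not called (0.87, SE 0.72, adjusted p = 0.383). The membrane protein gene pcx averaged 1519 ± 169 in Tip60 RNAi and 1198 ± 85.6 in eGFP RNAi (0.34; adjusted p = 0.00732). The gene numb, an inhibitor of Notch inherited by 1 daughter in asymmetric divisions, read 363, 388, 253, 365, 480.1 and 383 in Tip60 RNAi, against 642, 460.4, 578 and 758 in eGFP RNAi. All but 1 of the Tip60 RNAi arrays were below the eGFP RNAi range, and the log2 change of -0.71 (SE 0.17; adjusted p = 0.00291) was the lowest of the list. Among the genes not called, dx, for a regulator that binds the inner part of Notch, had a change of 0.06.

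Of 5 genes tested for ligand endocytosis, 1 was called, beside 34.5% of all probe sets tested. This was Ocho, a gene of the Bearded family whose proteins inhibit the ligase Neuralized. It averaged 100.1 ± 33.2 in Tip60 RNAi and 48.3 ± 36.7 in eGFP RNAi, and its log2 change was 1.26 (SE 0.46; adjusted p = 0.0427), with only 2 of 6 Tip60 RNAi arrays above the eGFP RNAi range. The call held in only 2 of the 10 fits without 1 array, those without eGFP RNAi 3-2 or dsRNA 1321-1618 replicate 1, and was lost without any other array, with a change down to 0.96 (adjusted p = 0.139) without eGFP RNAi 2-1. The gene neur, for Neuralized itself, had a change of -0.05 and lqf, for the endocytic adaptor epsin, of -0.13; neither was called.

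Of 11 genes for nuclear partners, 1 was called higher and 1 lower, beside 17.8% and 16.7% of all probe sets. Smr, for a corepressor that works with Suppressor of Hairless, read 4720.3, 3939, 3391, 4961, 4910.2 and 4438 in Tip60 RNAi, against 3019, 2862, 2739 and 2928 in eGFP RNAi. Every Tip60 RNAi array was above, and the log2 change was 0.59 (SE 0.09; adjusted p = 0.000106). CycC, the cyclin of the Mediator kinase module, fell to 1292 ± 33.2 in Tip60 RNAi, against 1477 ± 67.5 in eGFP RNAi (-0.19; adjusted p = 0.0274), all arrays below. Without eGFP RNAi 2-1 or 2-2 or dsRNA 603-1116 replicate 3 this call was lost (adjusted p from 0.0511 to 0.102). The corepressor genes gro and CtBP, whose proteins work with Hairless, had changes of 0.01 and 0.11, and nej, the fly CBP acetyltransferase gene, of -0.12; none was called.

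**Figure D4:**
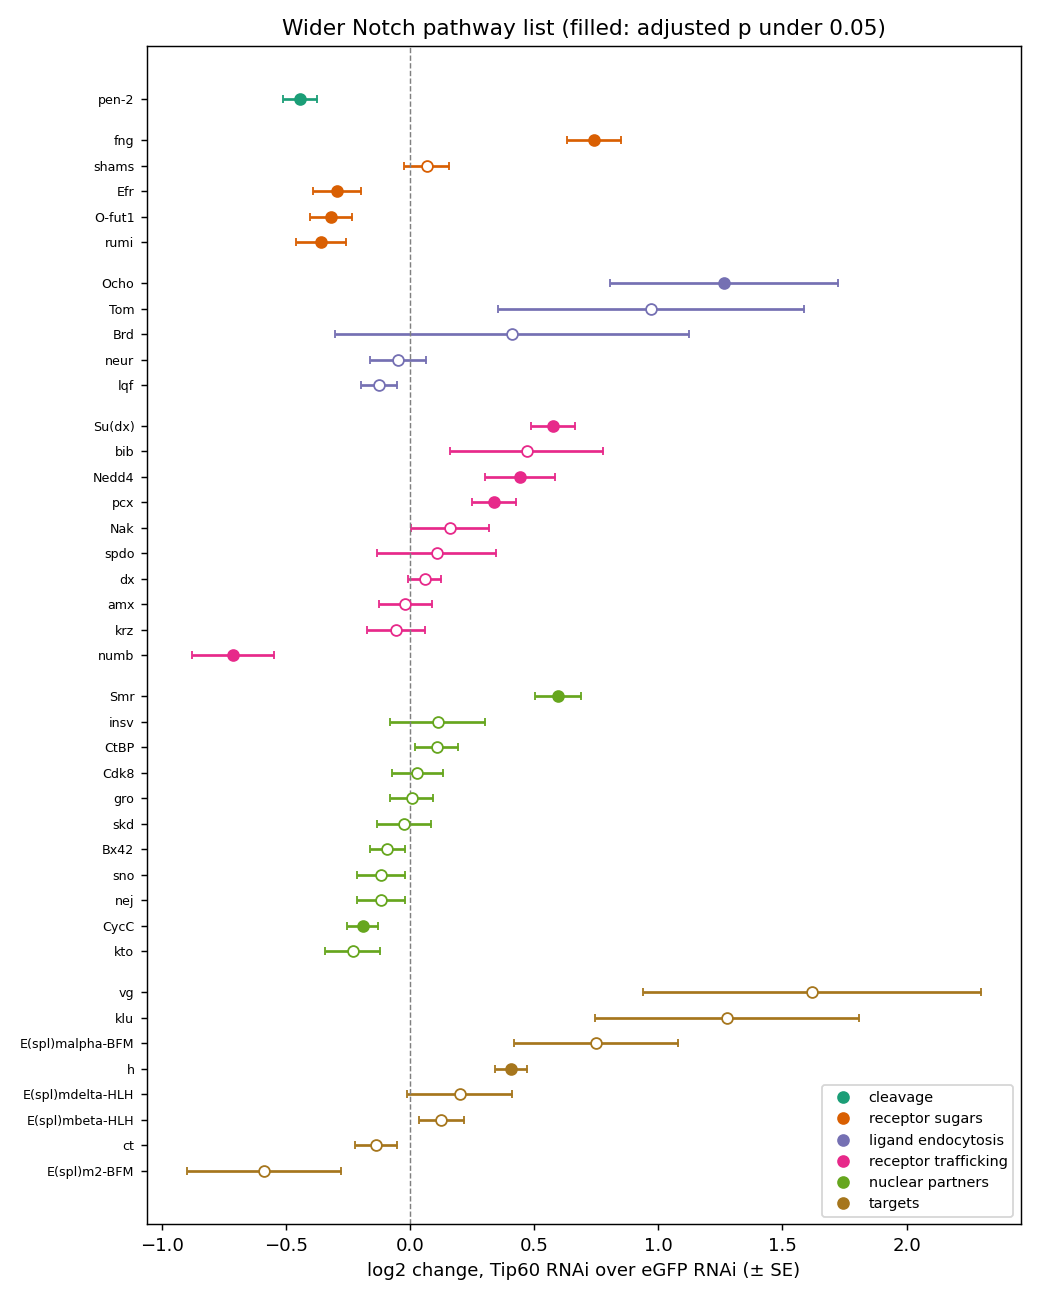
Log2 change, Tip60 RNAi over eGFP RNAi (horizontal axis, ± SE), of the 40 genes of the wider list that passed the filter, grouped by role; filled points have an adjusted p under 0.05. The 13 filled points fall on both sides of 0, from numb at -0.71 to Ocho at 1.26.

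Of the target genes, 8 of 18 passed the filter and 1 was called, beside 34.5% of all probe sets tested. The 1 called was h, the hairy gene, for a repressor of the same protein class as E(spl) that responds to Notch in some tissues. It read 29826, 30841, 30918, 32722, 29101 and 28326 in Tip60 RNAi, against 21864, 22841, 22588 and 24126 in eGFP RNAi. The groups were far apart relative to their spread, and the log2 change was 0.41 (SE 0.06; adjusted p = 0.000111). The other targets tested were not called. Of these, klu and vg had changes of 1.28 and 1.62 with SEs of 0.53 and 0.68 (adjusted p of 0.0749 and 0.0774) and ct of -0.14. Both klu and vg lay in the dimmest class, where the median log2 change was 0.49. Under the median and spike-in scalings none of the 7 genes called higher in the wider list was still called higher. Of the 40 genes, 23, 19 and 27 were then called lower, beside 48.5%, 41.9% and 60.1% of all probe sets tested. With the poly-A spike-ins the genes called lower included pcx, 1 of the 7. The change of h, for example, became -0.10, -0.14 and -0.34.

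E(spl)m3-HLH lies on chromosome arm 3R in a complex of 12 neighbouring genes in the RefSeq table of Release 6 plus ISO1 MT, 11 of them E(spl) genes. Of these 11, 9 had a probe set named here, 5 passed the filter and 1, E(spl)m3-HLH, was called, beside 34.5% of all probe sets. E(spl)mbeta-HLH, another repressor of the complex, averaged 2908 ± 381 in Tip60 RNAi and 2653 ± 199.8 in eGFP RNAi (log2 change 0.13, SE 0.09; adjusted p = 0.310). E(spl)mdelta-HLH had a change of 0.20 (adjusted p = 0.506), and the Bearded family genes E(spl)malpha-BFM and E(spl)m2-BFM had changes of 0.75 and -0.59 (adjusted p of 0.0927 and 0.158). The probe sets of the neighbours on either side of E(spl)m3-HLH were thus not called or, for E(spl)m4-BFM, below the filter. A difference between E(spl)m3-HLH and these genes was not tested.

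**Figure D5:**
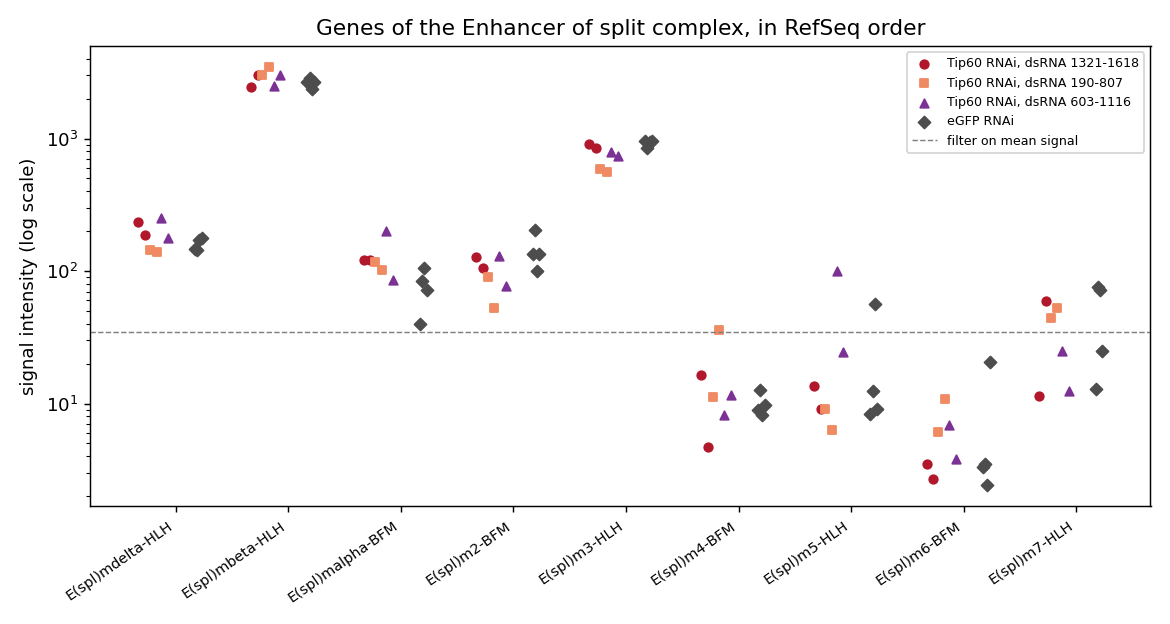
Signal on each array (vertical axis, arbitrary units, log scale) for the 9 E(spl) genes with a probe set, in their RefSeq order, with Tip60 RNAi arrays coloured by dsRNA left of the grey eGFP RNAi arrays; the dashed line marks the filter at 34.5. The 190-807 points of E(spl)m3-HLH (592 and 564) lie below all its eGFP RNAi points (845 to 962), and those of E(spl)m2-BFM below theirs.

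The probe sets whose log2 signals followed those of kuz most closely over the 10 arrays were those of tara (Pearson r = 0.983), br (r = 0.9802) and crp (r = 0.970), and 120 probe sets of other genes had an r over 0.9. These 3 averaged 2241, 2707 and 3122 in Tip60 RNAi and 1255, 1694 and 1784 in eGFP RNAi, with log2 changes of 0.82, 0.66 and 0.79. For E(spl)m3-HLH the closest were CG13365 (r = 0.939), CG6638 (r = 0.907) and COX7B (r = 0.906), with log2 changes of -0.43, -0.24 and -0.14 and adjusted p of 0.0141, 0.0317 and 0.287; 4 probe sets had an r over 0.9. These values describe likeness over arrays that share 2 treatments and 1 scaling, and carry no test.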

How the data were processed

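RNA from 10 SL2 samples was measured on Affymetrix arrays. The authors deposited linear signal intensity values, 1 per probe set and array, made with GCOS 1.4 per the submitters' processing notes; how background was corrected and probes combined is not stated in those notes as used here. Each array's deposited intensity has the same 2% trimmed mean, 1000.03, over 18952 probe sets. After 183 controls were set aside, log2 signals were used with no further normalization, probe sets under the 40th percentile of mean log2 signal (34.5) were left out, and 11261 were tested.

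The 6 Tip60 RNAi arrays were compared with the 4 eGFP RNAi arrays in limma 3.58.1 (R 4.3.3; lmFit, eBayes with an intensity trend), with Benjamini-Hochberg adjustment over all 11261 and calls at an adjusted p under 0.05. Each dsRNA was set against eGFP RNAi, and the dsRNAs compared by an F-test, in 1 fit of 4 group means. The procedure was tested on simulated data. For arrays, their number limits the precision, here 2 for each dsRNA.

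Names came from the platform annotation, updated by identifier through RefSeq (13544 of 13647 probe sets with 1 symbol matched; 402 had several and 4720 none, and were not named). In RefSeq Dl is Delta, h is hry and kul is Kul. No genome build was given for the files, and coordinates were therefore left out. Paralogs that share probes were not screened out. Named were all probe sets of the 10 genes and every called gene of the wider list, by its brightest probe set. For the called probe sets with the largest pooled rise and fall, the 3 probe sets most correlated with each were named too. Other genes were named after their values were seen. The genes, lists and markers were chosen with earlier results of these data known. Arrays of different groups with the same first title number did not deviate together (7 pairs, r from -0.0235 to 0.0266 over probe sets). The numbers were therefore not taken as pairs. The 7 values are not independent, as the 2 arrays of a dsRNA deviate from their mean in opposite ways. A fit with the first title number as a block is given at the end. Alternatives were 5 scalings, a pseudocount of 32, no filter or the 60th percentile, other variance models and designs, and leaving out arrays or dsRNAs.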

Additional observations from a re-analysis of the deposited data

Results flagged for a closer look

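On dsRNA 190-807 replicate 1, both probe sets of H lay apart from the other 5 Tip60 RNAi arrays by Dixon's test, with signals of 2184 for 1638568_s_at and 1010.3 for 1639839_s_at. Both values were the lowest of their group. In all, 44 groups were checked in this way, and chance marks about 1 in 20.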

How the results depend on the processing

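With arrays centred on the median, scaled to the hybridization spike-ins or scaled to the poly-A spike-ins, the Notch pathway probe sets called higher went to 0, 0 and 0 (2 as deposited) and those called lower to 4, 4 and 4 (2 as deposited). Genes of the wider list called higher came to 0, 0 and 0 (7 as deposited) and called lower to 23, 19 and 27 (6 as deposited). All probe sets called came to 5861, 5013 and 6993 (3885 as deposited). These scalings lower each log2 change by 1 constant by construction. In that order, reversed changes were those of Dl 1634659_at (-0.10, -0.15, -0.35), mam 1624960_at (-0.14, -0.18, -0.39), Nedd4 (-0.062, -0.10, -0.31), pcx (-0.17, -0.21, -0.41, the last with an adjusted p of 0.0268) and h (-0.10, -0.14, -0.34). With the poly-A spike-ins alone, those of Dl 1634398_a_at (-0.088), mam 1632457_s_at (-0.18), fng (-0.0095), Su(dx) (-0.18) and Smr (-0.16) also reversed. Quantile normalization and cyclic loess reversed Dl 1634659_at (-0.15 and -0.12). Leaving out dsRNA 190-807 or eGFP RNAi 2-1 turned H 1638568_s_at to 0.01 and 0.04 (0.0062 and 0.0366). The cause was not tested.

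The Notch pathway probe sets called lower came to 1 without the filter, without the intensity trend, with pairs of arrays averaged, without dsRNA 190-807 and without dsRNA 603-1116; in each the lost call was E(spl)m3-HLH. Leaving out single arrays gave 2 to 2 called higher and 0 to 2 called lower, with 0 without eGFP RNAi 2-1. For the wider list these gave 5 to 7 called higher and 3 to 7 called lower, with 3 without eGFP RNAi 2-2, and 3267 to 3971 of all probe sets. For dsRNA 1321-1618, 1 probe set was called after quantile normalization and 1 without the filter (2 as reported). For 190-807, 2 were called after quantile normalization and 2 without the filter (3 as reported). For 603-1116, 2 were called after quantile normalization (1 as reported). The rise of kuz was called in all 10 fits without 1 array and in 13 of 16 other alternatives, as was that of mam 1632457_s_at, and the fall of H 1639839_s_at in 9 of 10 and 15 of 16. Ocho was called in only 2 of 10 and 3 of 15 (adjusted p up to 0.376). Nedd4 was called in 7 and 10 of 16, Efr in 6 and 10, CycC in 7 and 11, and rumi in 8 and 16. The other alternatives include the median and spike-in scalings, which lower every log2 change and so favour the call of a fall over that of a rise. Counts of falls and of rises are therefore not comparable. With title number 3 as a replicate block, 0 Notch pathway probe sets passed the F-test, as without it, and 3 of all probe sets did (4 without the block). With the first title number as a replicate block, chosen after seeing the data, 2 Notch pathway probe sets were called higher and 0 lower. In that fit H 1639839_s_at had a change of -0.21 (adjusted p = 0.139) and E(spl)m3-HLH of -0.37 (adjusted p = 0.102). H 1638568_s_at had a change of 0.0183, and 2785 of all probe sets were called. Whether the title numbers pair the arrays is not stated in the labels.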
